A study of Mus musculus with 34 samples.

Results

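The Tdpoz genes of the mouse, Tdpoz1 to Tdpoz5, encode proteins with a TRAF domain followed by a POZ domain. They were taken by their symbols, 5 of the 49686 gene symbols in the early tables (zygotes and late 2-cell embryos) and 5 of the 51734 in the blastocyst table. All 34 libraries were single embryos that developed from zygotes injected with mRNA for CHK1, the checkpoint kinase that delays mitosis when DNA is damaged. The injected mRNA encoded either wild-type CHK1 (WT) or the mutant that the labels write as R442Q, and the question, from the title of the study, is what perturbing the checkpoint does to the transcriptome. The WT groups held 5 zygotes, 4 late 2-cell embryos and 7 blastocysts, and the R442Q groups 6, 5 and 7. The zygotes and 2-cell embryos are labelled as given no inhibitor, whereas all 14 blastocysts of both kinds were grown in medium with 30 nM CHK1 inhibitor. Neither a strain, an age nor an uninjected embryo is given, the labels describe overexpression and name no deletion of the embryo's own gene, and nothing says whether embryos of a group came from separate matings, so p-values measure the spread between these embryos.

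A TRAF domain joined to a POZ domain is the arrangement found in SPOP, whose TRAF domain binds substrates and whose POZ domain binds CUL3, the scaffold of a ubiquitin ligase. Tdpoz genes are a rodent expansion of this type, and are known from oocytes and early embryos, where their transcripts appear around the activation of the embryonic genome. In the mouse that activation has its main wave at the 2-cell stage, while maternal transcripts are being cleared.

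All 5 members lie on chromosome 3 of GRCm38, and 4 of them have no intron in the annotation. On the minus strand are Tdpoz2 (ENSMUSG00000103362.1), chr3:93651542-93652686, Tdpoz1 (ENSMUSG00000094084.2), chr3:93669333-93676310, and Tdpoz5 (ENSMUSG00000094163.1), chr3:93960292-93961314. On the plus strand are Tdpoz4 (ENSMUSG00000060256.1), chr3:93796398-93797510, and Tdpoz3 (ENSMUSG00000058005.3), chr3:93826020-93827117. Tdpoz1 is annotated with 2 exons and a transcript of 2322 bases, and no member overlaps a gene on the other strand. RefSeq names 3 further members that the tables list under other symbols, Gm10697 (Tdpoz7), Gm4858 (Tdpoz8) and Gm9125 (Tdpoz9).

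The first 60 coding bases show how alike the members are, which matters for every count below. They are read from the GENCODE M21 transcripts, 5′ to 3′ from the start codon, and capitals mark bases that differ from Tdpoz1 at the same place.
Tdpoz1: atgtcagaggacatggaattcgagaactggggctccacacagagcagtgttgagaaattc
Tdpoz2: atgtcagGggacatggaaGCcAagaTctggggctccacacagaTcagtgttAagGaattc
Tdpoz3: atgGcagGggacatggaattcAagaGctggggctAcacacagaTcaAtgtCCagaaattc
Tdpoz4: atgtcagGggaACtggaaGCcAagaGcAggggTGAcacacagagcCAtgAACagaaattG
Tdpoz5: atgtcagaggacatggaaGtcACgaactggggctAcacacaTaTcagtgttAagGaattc
Tdpoz2 and Tdpoz5 differ from Tdpoz1 at 8 of these bases, Tdpoz3 at 9 and Tdpoz4 at 17. Over the whole aligned coding sequence the identity to Tdpoz1 was 88.0% for Tdpoz3, 84.0% for Tdpoz5, 83.5% for Tdpoz2 and 76.7% for Tdpoz4, against 70.3% for Spop. Gm9125 was 98.4% identical to Tdpoz1.

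Reads from such genes can fall to more than 1 of them. All 974 stretches of 50 bases in Tdpoz5 also occurred in Gm10697, and the deposited counts of both were the same in all 20 zygotes and late 2-cell embryos. So each value given here for Tdpoz5 is the equal share that the authors' estimate gave to each gene of that pair, and the pair's summed level is the value times 2. The share of stretches found in any other annotated gene was 66.2% for Tdpoz3, 48.3% for Tdpoz2, 45.1% for Tdpoz1 and 41.2% for Tdpoz4. Tdpoz1 shared 44.5% of its stretches with Gm9117 and 40.7% with Gm9125, and Tdpoz3 shared its 66.2% with Gm4982.

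RefSeq (GRCm38.p6) windows from 250 bases before to 50 after the annotated start were at hand for Tdpoz1, Tdpoz4 and Tdpoz5, and for Gm4858, Gm9125 and Gm10697. The 250 bases before the starts of Tdpoz1 (chr3:93676284-93676533, minus strand) and Tdpoz5 (chr3:93961315-93961564, minus strand) are shown because both genes were at high levels in late 2-cell embryos and their windows do not align. Capitals mark TATATAA.
Tdpoz1: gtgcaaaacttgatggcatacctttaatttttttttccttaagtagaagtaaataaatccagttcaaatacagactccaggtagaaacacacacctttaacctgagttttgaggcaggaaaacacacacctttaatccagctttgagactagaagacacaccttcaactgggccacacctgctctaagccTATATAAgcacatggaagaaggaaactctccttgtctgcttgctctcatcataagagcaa
Tdpoz5: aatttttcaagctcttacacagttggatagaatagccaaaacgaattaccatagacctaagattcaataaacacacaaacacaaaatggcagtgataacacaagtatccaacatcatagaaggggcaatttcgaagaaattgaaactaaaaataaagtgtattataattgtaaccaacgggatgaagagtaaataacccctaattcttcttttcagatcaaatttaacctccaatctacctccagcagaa
TATATAA began at position -60 from the annotated start of Tdpoz1, at -33 from that of Gm9125 and at -29 from a start of Gm4858. It was not found on either strand of the windows of Tdpoz4, Tdpoz5, Gm10697 or another start of Gm4858, and 3.242% of all 32851 windows of this length held it on either strand. The windows of Tdpoz1 and Gm9125 aligned over 272 bases with no mismatch and 1 gap base, and those of Tdpoz5 and Gm10697 were identical at 299 of 300. A match of letters is a description and shows neither a used start nor a bound factor.

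The 11 zygotes held between 7183632 and 11296522 counts each and the 9 late 2-cell embryos between 5727956 and 8916343, and the depth of the blastocysts is unknown, since only FPKM was used for them. CPM below is the estimated count scaled to the library's total and its TMM factor (edgeR's correction for composition), and FPKM is the deposited value per transcript length. All 10 oocyte and zygote markers averaged at least 1 FPKM in zygotes and in late 2-cell embryos, and all 13 blastocyst markers did in blastocysts. Of 8 markers of 2-cell embryos all reached that level at the late 2-cell stage, but 6 did in WT zygotes and 8 in R442Q zygotes. Summed, these 8 ran from 487.93 to 588.6 FPKM in WT and from 288.94 to 437.59 in R442Q zygotes. At the late 2-cell stage they ran from 164.61 to 1624.39 in WT and from 1285.8 to 3217.64 in R442Q embryos. By this sum R442Q zygotes lay below WT zygotes, and the stages overlapped in WT embryos and were separate in R442Q embryos. Summed cumulus cell markers ran from 21.65 to 32.36 FPKM in zygotes, from 59.59 to 77.28 in WT and from 58.49 to 139.83 in R442Q late 2-cell embryos, where 3 of the 13 averaged at least 1 FPKM and Fshr and Inhba were at 0. Summed, the oocyte and zygote markers ran from 3609.39 to 6910.23 FPKM in zygotes, from 1323.42 to 3234.76 in WT and from 1747.12 to 6989.06 in R442Q late 2-cell embryos. By these markers the stages were separate in WT embryos and overlapped in R442Q embryos. R442Q zygote replicate 2 stood apart from the other zygotes in the family's counts, so several values are given with and without it. Each stage is a table of its own with its own normalization, so stage and table cannot be told apart. CPM and FPKM are shares of a library, and in blastocysts, which hold several cell types, fewer expressing cells cannot be told apart from less RNA per cell.

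**Figure D1:**
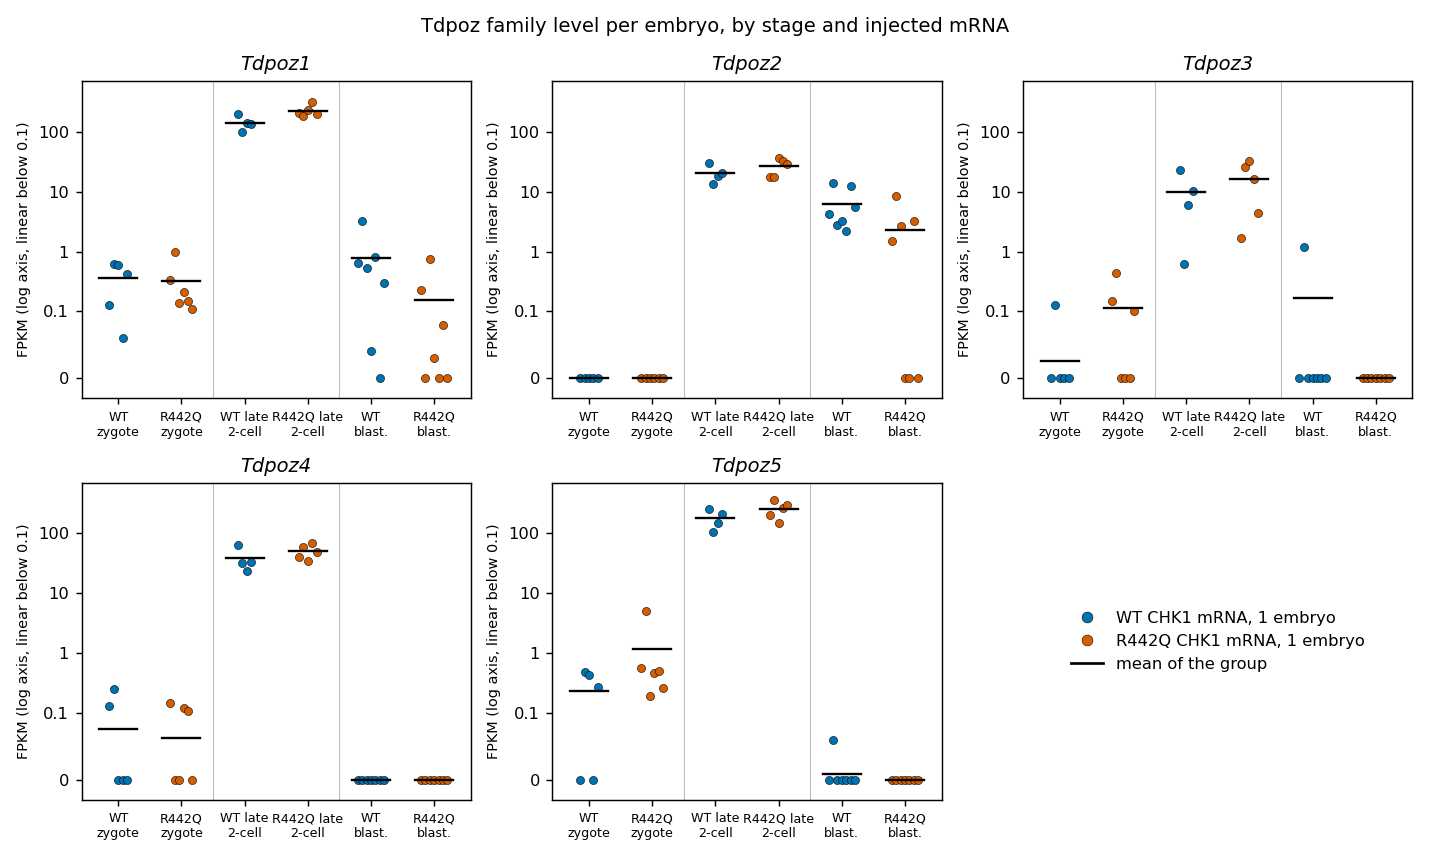
FPKM of each of the 5 members (1 panel each, log axis that is linear below 0.1) in every embryo of the 6 groups, with the group mean as a bar. The late 2-cell group means are the highest for all 5 members. For Tdpoz2 and Tdpoz3, WT blastocyst replicate 2 lies above the lowest late 2-cell embryo. Tdpoz2 is at 0 in all 11 zygotes, and Tdpoz2 alone keeps a level above 1 FPKM in most blastocysts.

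The first comparison was between stages. The members were chosen by name with their stage and group values in these tables in view, so the values describe the pattern and no test of it is given. All 5 members were higher in late 2-cell embryos than in zygotes, in both groups, with no overlap between the stages for any of them. Over all genes, 36.2% were called higher at the late 2-cell stage in WT embryos and 35.3% in R442Q embryos (edgeR, adjusted p under 0.05), and every late 2-cell embryo lay above every zygote for 31.1% of tested genes in WT and 21.6% in R442Q embryos, so neither measure alone sets the family apart.

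Tdpoz1, the 2-exon member, was counted at 2.22, 11.4, 9.79, 1 and 8 in the WT zygotes (replicates 1 to 5). In the 4 WT late 2-cell embryos its counts were 2695, 1484, 2033 and 1769, so that the lowest late 2-cell embryo lay far above the highest zygote. The fitted log2 difference, late 2-cell minus zygote, was 8.55 ± 0.50 (SE) in WT and 9.35 ± 0.47 in R442Q embryos, and the latter was 9.99 without R442Q zygote replicate 2.

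Tdpoz5, the shortest coding sequence of the family, was counted at 0, 3.5, 3, 0 and 2 in the WT zygotes. Its WT late 2-cell counts were 1356, 638, 839 and 1085, and again no late 2-cell embryo came near a zygote. The fitted log2 difference was 9.29 ± 0.78 (SE) in WT and 7.65 ± 0.63 in R442Q embryos. The R442Q value rests partly on R442Q zygote replicate 2, and was 9.05 without it.

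The other members were almost uncounted in zygotes. Tdpoz2 had 0 counts in all 11 zygotes, which allows up to 3 counts over each group's summed total. Against that floor its pooled late 2-cell level was at least 274-fold higher in WT and at least 457-fold higher in R442Q embryos. Tdpoz4 had 3 counts in all WT zygotes together and 3 in all R442Q zygotes. Its pooled ratio was 502 in WT (95% exact counting interval 171 to 2437) and 834 in R442Q embryos (285 to 4048). Without WT zygote replicate 2, which held 2 of those 3 counts, the WT log2 ratio moved from 8.97 to 10.2. Tdpoz3 had 1 count in WT and 5 in R442Q zygotes, with ratios of 377 (67.0 to 14954) and 147 (62.4 to 454). Without R442Q zygote replicate 2 its R442Q log2 ratio moved from 7.20 to 8.30, and without WT late 2-cell replicate 1 its WT log2 ratio moved from 8.56 to 7.69. Intervals and floors reflect counting error alone, because the reads were amplified and carry no molecular identifiers.

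Per transcript length, Tdpoz5 and Tdpoz1 lay above the other members at the late 2-cell stage. Over the 9 embryos the mean FPKM was 221 ± 80.1 (SD) for Tdpoz5 and 188 ± 61.5 for Tdpoz1, and Tdpoz5 was the higher in 6 of 9 embryos with overlapping ranges, so these neighbours did not differ beyond their spread. Summed, Tdpoz5 and Gm10697 had 442.4 ± 160.2 FPKM (SD), above Tdpoz1 in 9 of 9 embryos though the ranges overlapped. Tdpoz4 followed at 45.1 ± 16.4 FPKM, below Tdpoz1 in 9 of 9 embryos with no overlap. Tdpoz2 stood at 23.7 ± 8.03 FPKM and Tdpoz3 at 13.4 ± 11.6, each below the member before it in 8 of 9 embryos with overlapping ranges. In WT late 2-cell embryos Tdpoz5 ranked 608th and Tdpoz1 819th among the 49686 listed genes by mean FPKM, Tdpoz4 ranked 2935th, Tdpoz2 4583rd and Tdpoz3 6723rd. Tdpoz1 held 50.11% to 69.38% of the family's counts in each late 2-cell embryo, or 36.34% to 59.12% with Gm10697 added to the family.

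Tdpoz3 was the uneven member. Its FPKM was 23.3, 0.62, 5.97 and 10.1 in WT replicates 1 to 4 and 1.69, 25.3, 32.8, 16.4 and 4.36 in R442Q replicates 1 to 5, so that low and high embryos occurred in both groups. The SD of its log2 CPM was 1.95 in WT and 1.67 in R442Q embryos, where the median over all tested genes was 0.63 and 0.88. Tdpoz1 was the steadiest, with SDs of 0.34 and 0.29.

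The rest of the cluster was read at the same stage. Gm9125 had a mean of 112 FPKM in WT and 176 in R442Q late 2-cell embryos, and Gm10697 the values of Tdpoz5. Gm9113 and Gm5852, annotated as pseudogenes between the members, had means of 58.2 and 69.9 FPKM in WT embryos. Since these genes share stretches with each other, part of each level may be reads of a neighbour, which the files do not resolve. Spop, on chromosome 11, had 54.2 FPKM in WT zygotes and 37.6 in WT late 2-cell embryos, so it was present at both stages.

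**Figure D2:**
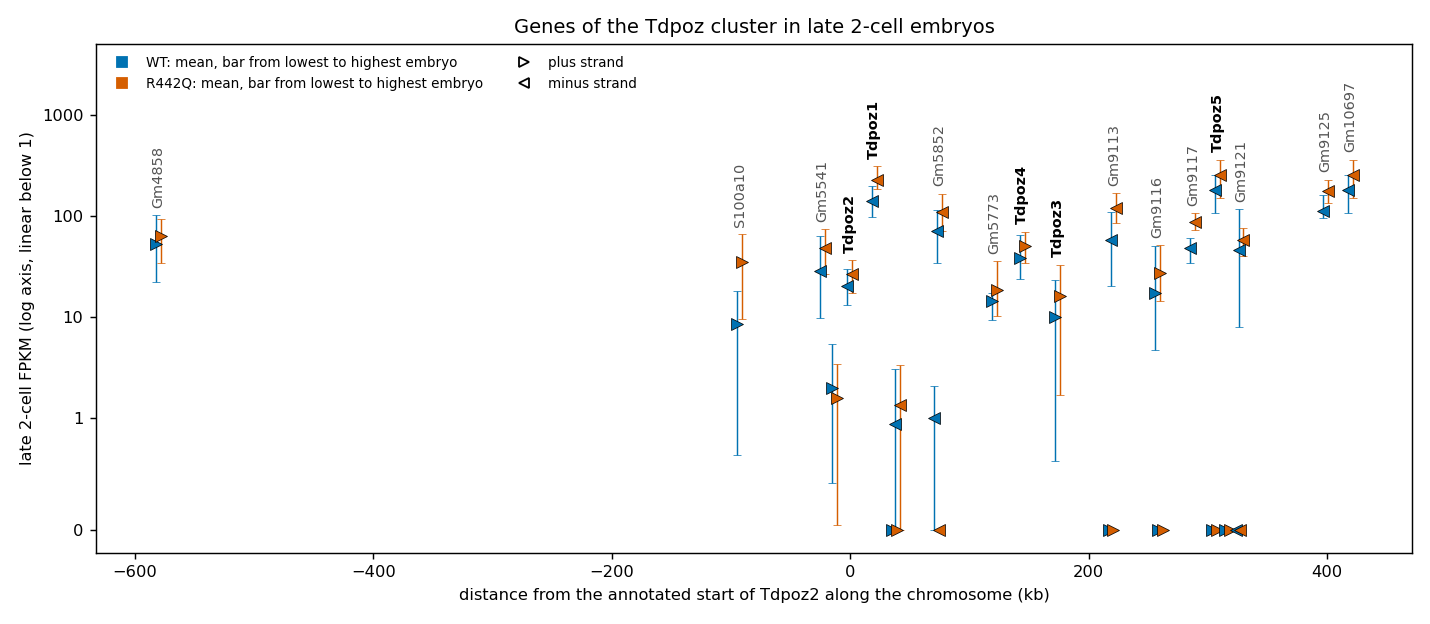
Mean FPKM in late 2-cell embryos (log axis that is linear below 1, bars from the lowest to the highest embryo) of the members, their annotated neighbours and relatives on chromosome 3, by distance in kb from the start of Tdpoz2; triangles point along the strand. Tdpoz1, Tdpoz5, Gm9125 and Gm10697 are the highest of the genes drawn, and several short annotated genes between them sit at or near 0.

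The second comparison was between WT and R442Q late 2-cell embryos. These values too were in view when the family was chosen, and they support nothing beyond themselves. None of the 5 members, all of which were tested, was called different, where 4.18% of 13883 tested genes were called (edgeR quasi-likelihood test, Benjamini-Hochberg adjusted p under 0.05). DESeq2 also called 0 members, where it called 12.1% of all tested genes. At an unadjusted p under 0.05 there was 1 member, Tdpoz1, by either tool, against 21.0% of all tested genes with edgeR. The fitted differences of all 5 members were above 0, as were 52.7% of all tested genes, but 4 of the 5, all but Tdpoz1, fell below 0 once a trend of each library with gene length and GC content was removed. The median of the members was 0.57 on the log2 scale, R442Q minus WT, beside 0.07 over all tested genes.

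Tdpoz1 had 377, 211, 289 and 293 CPM in WT replicates 1 to 4. In R442Q replicates 1 to 5 it had 461, 392, 430, 658 and 416 CPM, with replicate 4 the highest. Every R442Q embryo lay above every WT embryo on this scale, as was so for 12.2% of tested genes in either direction. In the deposited FPKM the groups overlapped, with 97.0 to 195 in WT and 184 to 308 in R442Q embryos. The log2 difference was 0.74 ± 0.29 (SE; 95% interval 0.13 to 1.35), with an edgeR adjusted p of 0.153. Across the other settings tried its adjusted p ranged from 0.0568 (DESeq2) to 0.795 (length and GC trend removed, log2 difference 0.21).

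Tdpoz5 had 190, 90.5, 119 and 180 CPM in WT and 171, 296, 107, 220 and 238 CPM in R442Q embryos, with wide overlap. Its log2 difference was 0.57 ± 0.35 (SE; 95% interval -0.18 to 1.31; edgeR adjusted p 0.380). Tdpoz4 ranged from 21.0 to 54.5 CPM in WT and from 26.9 to 63.7 in R442Q embryos, a log2 difference of 0.47 ± 0.38 (edgeR adjusted p 0.522). Tdpoz2 ranged from 12.8 to 25.8 CPM in WT and from 16.9 to 30.3 in R442Q embryos, a log2 difference of 0.41 ± 0.40 (edgeR adjusted p 0.604). The intervals of these members reach from below 0 to more than 1 on the log2 scale, so the data bound their difference only loosely. Tdpoz3 gave 0.70 ± 0.89 with an edgeR adjusted p of 0.706, the widest interval of the family (-1.19 to 2.60). It was 1.46 without WT replicate 1 and 0.30 without WT replicate 2, so single embryos set its size.

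**Figure D3:**
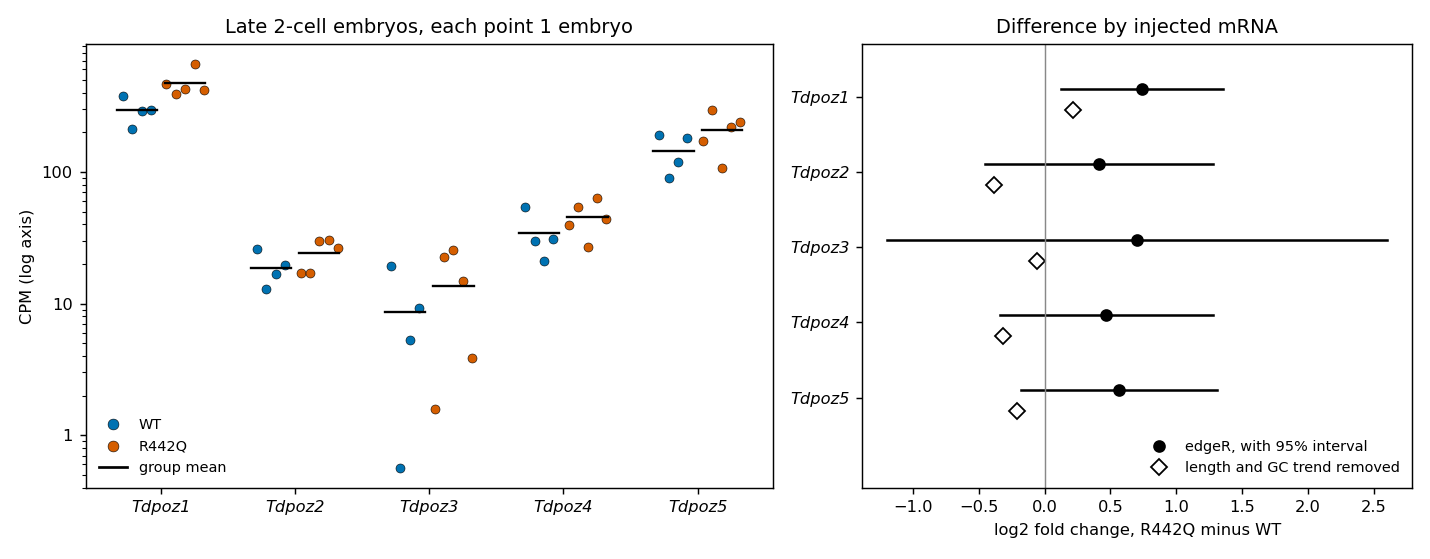
Left, CPM of each member in every late 2-cell embryo (log axis, bars are group means). Right, log2 fold change of R442Q minus WT with its 95% interval (filled) and the value after removing a length and GC trend (open). Tdpoz1 is the member whose groups do not overlap and whose interval lies above 0, and the open points of the other 4 lie below 0.

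The 5 members summed to 666, 344, 451 and 533 CPM in the WT and 691, 783, 619, 986 and 728 CPM in the R442Q late 2-cell embryos. The means were 499 ± 136 (SD, n = 4) and 761 ± 139 (SD, n = 5), and 1 WT embryo, replicate 1, lay within the R442Q range. Gm9117, a neighbour that shares stretches with Tdpoz1, differed by 0.90 ± 0.28 (SE, edgeR adjusted p 0.0865) and was called higher in R442Q by DESeq2 (0.89, adjusted p 0.0182). Gm9125, which also shares stretches with Tdpoz1, differed by 0.73 ± 0.29 (SE, edgeR adjusted p 0.165). It was called by neither tool (DESeq2 adjusted p 0.0665). With each member's counts pooled with those of every gene holding at least 20% of its stretches, 0 members were called and the difference of Tdpoz1 was 0.76 (edgeR adjusted p 0.128).

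Other genes of the 2-cell stage were read in the same embryos. Summed over the 32 measured genes of a list of 2-cell genes (such as the Zscan4 and Usp17l genes, which are known as transient 2-cell transcripts), the level was 3538 to 6946 CPM in WT and 7831 to 11100 in R442Q late 2-cell embryos. The groups did not overlap, as was so for 12.2% of single tested genes. In zygotes the same sum was 2919 to 3445 CPM in WT and 3222 to 3807 in R442Q, so it was not low before the 2-cell stage. From zygote to late 2-cell in WT embryos, edgeR called 25 of the 32 higher and 3 lower. Of the 31 tested between R442Q and WT late 2-cell embryos, edgeR called 1, where 4.18% of all tested genes were called. DESeq2 called 9, where 12.1% were. EdgeR called 4 without WT replicate 1 and 5 without R442Q replicate 3. The part of that list's level, and of the cumulus, oocyte and zygote markers given above, in the family's values was not tested.

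In zygotes the third comparison had little to measure. None of the 5 members passed the filter on low counts, so none was tested, where 13.2% of 12420 tested genes were called (edgeR). With no filter, the 4 members with any count were fitted and 0 were called. With both early stages in 1 fit, all 5 entered, but only through their late 2-cell counts, and Tdpoz2, with no zygote count, could not be called. In that fit 0 were called, against 1.67% of all genes, and Tdpoz5 had an unadjusted p under 0.05, so the zygote tests say little about the members.

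Among the R442Q zygotes, replicate 2 held most of what was counted. The family's counts were 3.22, 17.9, 12.8, 1 and 10 in the WT zygotes. They were 10.7, 49.2, 4.5, 8.43, 8 and 6.17 in the R442Q zygotes, of which 31.1 counts in replicate 2 were Tdpoz5. Without that embryo, the R442Q counts lay within the range of the WT counts. The family's mean was 1.05 ± 0.79 CPM in WT (SD, n = 5) and 2.03 ± 2.65 in R442Q zygotes (SD, n = 6), a log2 ratio of 0.94 that became -0.14 without the embryo. Tdpoz5, unfiltered, differed by 2.21 ± 1.05 (SE, edgeR adjusted p 0.218), and by 0.75 ± 1.31 (edgeR adjusted p 0.784) without it. The same zygote had 258.9 counts of Gm10696, a gene named here after its values were seen, against 5 to 44.43 in the other R442Q zygotes and 3 to 5 in WT.

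**Figure D4:**
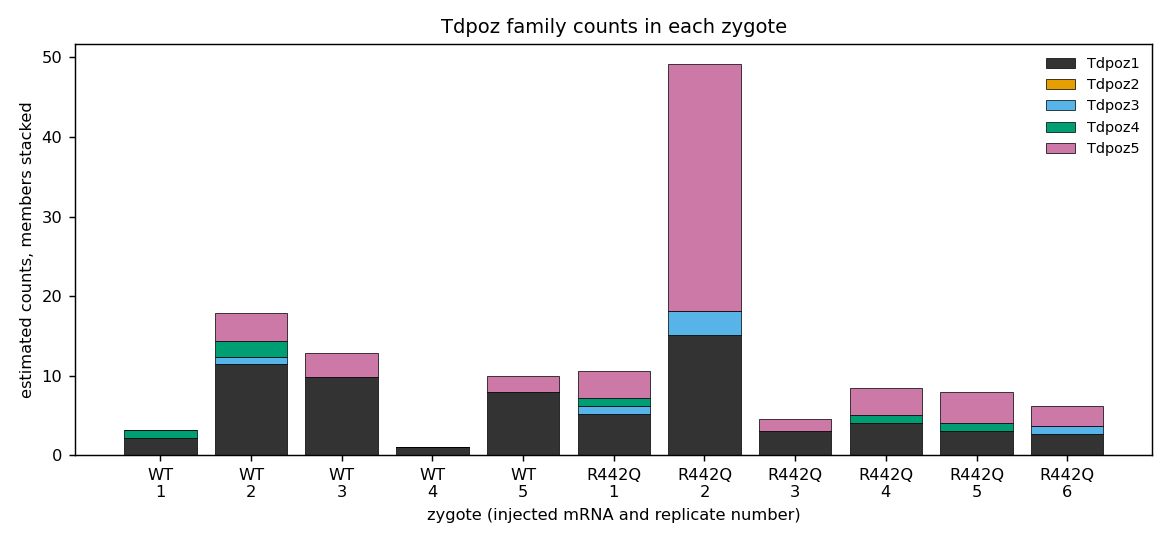
Estimated counts of the 5 members, stacked, in each of the 11 zygotes. R442Q replicate 2 reaches 49.2 counts, mostly Tdpoz5, and no other zygote passes 17.9.

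The 2-cell list gives the setting of these zygotes. Of its 26 tested genes, 13 were higher in R442Q zygotes and 1 was lower, where 6.30% of all tested genes were called higher (edgeR). Zscan4f differed by 4.65 ± 0.87 (SE) on the log2 scale and Usp17la by 2.75 ± 0.44, with edgeR adjusted p of 0.00248 and 0.000862. Without R442Q replicate 2, 11 were higher and 1 lower, and 10 of the 13 were called higher both with and without that embryo. With both early stages in 1 fit, 9 of the list were called, where 1.67% of all genes were. Members of this list were known to differ in these data when it was drawn up, so the count is no independent evidence of its direction.

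Whether the difference between R442Q and WT itself changed from zygote to late 2-cell was tested as an interaction. It was called for 0 of the 5 members, where 10.1% of 16199 genes were called (edgeR), with 0 at an unadjusted p under 0.05, and DESeq2 also called 0. The members entered through their late 2-cell counts alone, so their zygote side is close to 0 and the test has little to work with. Over all genes the median interaction was -0.16. For Tdpoz1 it was 0.80 ± 0.63 (SE) and for Tdpoz5 -1.64 ± 0.98, with edgeR adjusted p of 0.469 and 0.312. Without R442Q zygote replicate 2 they were 1.61 ± 0.56 and -0.067 ± 0.50 (edgeR adjusted p 0.0752 and 0.965). Tdpoz2, at 0 in every zygote, could not be called. Among the genes of the cluster that are no members, the interaction was called for Gm5852 (-4.12 ± 1.28, edgeR adjusted p 0.0419), and by DESeq2 for Gm5852 and Gm4858 (adjusted p 0.00914 and 0.0447). These genes too entered through their late 2-cell counts alone. All WT zygotes together held 1.36 counts of Gm5852 and 1 of Gm4858, so these calls say little. With both early stages in 1 fit, 1.67% of all genes were called in zygotes. Gm5852 and Gm9113 were among them, higher in R442Q zygotes by 4.77 and 5.35 (edgeR adjusted p 0.0235 and 0.0452). Neither passed the filter in zygotes alone, so a call from this fit says little about zygotes. These values rest in part on R442Q zygote replicate 2, which held 29.6 counts of Gm5852 and 92.6 of Gm9113. Without that embryo the interaction of Gm5852 was -2.80 (edgeR adjusted p 0.0977). That of Gm4858 in edgeR went from -4.52 to -2.33 (edgeR adjusted p 0.235 without the embryo). The zygote differences of Gm5852 and Gm9113 were then 3.54 and 2.80 (edgeR adjusted p 0.0811 and 0.295).

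In blastocysts, all grown with the inhibitor, Tdpoz2 was the member with the highest levels. Its FPKM was 4.24, 13.9, 2.73, 3.25, 2.21, 12.2 and 5.59 in WT replicates 1 to 7. In R442Q replicates 1 to 7 it was 1.49, 8.52, 2.64, 0, 0, 3.29 and 0, so that 7 of 7 WT but 4 of 7 R442Q embryos were above 0. Tdpoz2 had been the fourth of the members by level at the late 2-cell stage. The blastocyst table was made with another annotation than the early tables, so its levels are set beside theirs only as they were deposited.

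Among the members, Tdpoz2 alone passed the filter (7 or more embryos with an FPKM of 1 or higher). It was not called by limma on log2(FPKM + 1), where 0.00885% of 11297 genes were called, a single gene. The difference was -1.41 ± 0.55 (SE; 95% interval -2.57 to -0.25) with an adjusted p of 0.514 in limma, and an unadjusted p of 0.0202, under the 0.05 that 7.40% of tested genes were under. The groups overlapped between 2.21 and 8.52 FPKM, and the median over all tested genes was -0.10. A pseudocount of 0.1 in place of 1 took the difference to -2.78, since 3 embryos were at 0, with a limma adjusted p of 0.564. The neighbouring gene Gm37596, which holds 63.4% of the stretches of Tdpoz5, also passed the filter, at 2.68 ± 2.55 FPKM in WT and 2.51 ± 3.02 in R442Q embryos (SD, n = 7 each), with a difference of -0.20 (95% interval -1.46 to 1.06, limma adjusted p 0.968).

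The other members were near 0 in blastocysts. Tdpoz1 was above 0 in 6 of 7 WT embryos, up to 3.22 FPKM, and in 4 of 7 R442Q embryos, up to 0.75. Tdpoz3 and Tdpoz5 were above 0 in a single embryo, WT replicate 2, at 1.17 and 0.06 FPKM, and Tdpoz4 was listed at 0 in all 14. WT replicate 2 thus had the highest value of each of the 4 members that were above 0. In the same embryo the 8 markers of 2-cell embryos summed to 21.55 FPKM, against 0 to 4.99 in the other 13. Oocyte and zygote markers summed to 1.76 FPKM there, within the range of 0 to 6.49 of the other embryos, and the part of either in the family's values was not tested.

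**Figure D5:**
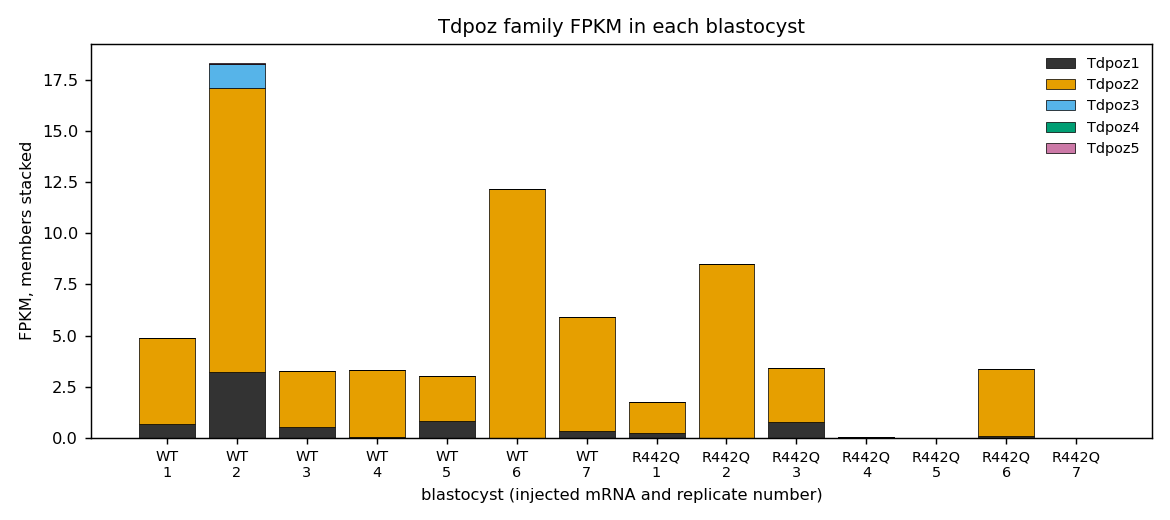
FPKM of the 5 members, stacked, in each of the 14 blastocysts. WT replicate 2 is the highest at 18.36 FPKM and R442Q replicates 5 and 7 are at 0. Tdpoz2 makes up most of each bar above 0 except that of R442Q replicate 4, where it is at 0 and Tdpoz1 is at 0.03 FPKM.

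The partners through which a POZ adaptor of the SPOP type works were followed with a list of 48 genes of the CUL3 ligase (the scaffold, its RING partner Rbx1, its NEDD8 system and known BTB adaptors). Cul3 itself had 2.98 ± 0.69 FPKM in WT zygotes (SD, n = 5) and 180 ± 46.6 in WT late 2-cell embryos (SD, n = 4), a fitted log2 change of 6.06 ± 0.34 (SE, edgeR adjusted p 2.23e-12). In R442Q embryos Cul3 changed by 6.61 ± 0.32 (SE, edgeR adjusted p 2.03e-13). Of the 45 list genes tested between stages in WT embryos, 11 were higher and 12 lower at the late 2-cell stage, where 36.2% of all genes were called higher and 25.0% lower. In R442Q embryos 11 were higher and 16 lower, beside 35.3% and 29.8% of all genes. Cul3 moved with the Tdpoz members while the list as a whole went both ways, and Rbx1 fell by 1.20 on the log2 scale in WT embryos (edgeR adjusted p 0.000126).

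Between R442Q and WT embryos, how many genes of the list were called depended on the fit. With both early stages in 1 fit edgeR called 15 in late 2-cell embryos, where it called 2507 of all 16199 genes. In zygotes that fit called 0 of the list, where it called 270 of all genes. Fitted alone, each stage gave other counts. In late 2-cell embryos 1 of its 42 tested genes was called by edgeR, Klhl21, a BTB adaptor known from mitosis, which fell by 2.76 on the log2 scale in R442Q (adjusted p 0.00336), whereas DESeq2 called 9, against 12.1% of all genes, and edgeR without R442Q replicate 3 called 4. In zygotes 4 of 42 were called by edgeR, all higher in R442Q, namely Klhl20, Kctd13, Klhl22 and Rbx1, by 0.33 to 0.93. Of all tested genes, 13.2% were called in either direction and 6.30% were called higher. Leaving out WT replicate 2 left 1 call, and leaving out WT replicate 1 or 3 or R442Q replicate 1 or 5 left 2. In blastocysts limma called 0 of 33. The difference between R442Q and WT itself changed between the stages for 8 of 45, all lower at the late 2-cell stage than in zygotes, as was so for 7.05% of all genes (edgeR). Among them were Klhl21, by -3.80 ± 0.76 (SE), and Cand1, an exchange factor of cullin ligases, by -1.36 ± 0.37, with edgeR adjusted p of 0.00283 and 0.0199. Spop and Spopl, relatives outside the cluster, were not called in zygotes or late 2-cell embryos, with log2 differences in the latter of -0.39 ± 0.35 and 0.34 ± 0.71 (SE, edgeR adjusted p 0.569 and 0.836).

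Which genes varied most like the members' mean was read from the 9 late 2-cell embryos, as deviations from the group means of log2 CPM. That mean gives each member the same weight. Tdpoz3 had the largest SD, 1.95 in WT and 1.67 in R442Q embryos, where no other member passed 0.56. The r values therefore follow Tdpoz3 more than the other members. The 10 with the highest Pearson r to the members' mean were Gm21818, Gm43678, Nat8f2, Gm20767, AF067061, B020031M17Rik, Gm4027, Gm2035, A930014E10Rik and BC147527, with r from 0.994 down to 0.943. Of 10441 genes, 1.7% had an r above 0.8, all from the same 9 libraries, and 5 of the 10 lie on chromosome 13 and none in the Tdpoz cluster. Among the members themselves the r of these deviations was highest for Tdpoz4 with Tdpoz5, 0.734, and for Tdpoz1 with Tdpoz2, 0.708, and lowest for Tdpoz2 with Tdpoz5, 0.144. Over all 20 early embryos the closest by level were BC028528, Gas5, Gm9125, Gm10697 and Cenpw, but 26.4% of genes had an r above 0.8 there, since the zygotes and the late 2-cell embryos form 2 separate sets of points.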

How the data were processed

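RNA of 34 single embryos was made into cDNA by SMART-seq2, cut with Tn5 and sequenced, per the labels' protocols. The deposited early tables hold estimated counts and FPKM, and the deposited blastocyst table holds FPKM, both made by the authors. RSEM and mm10 are named in the submitters' processing notes, with no version. RSEM shares a read among the genes it fits. Strand use is not given in the sources used here.

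Counts were rounded and fitted with edgeR 4.0.16 in R 4.3.3 (filterByExpr with a minimum count of 10, TMM, quasi-likelihood test), with DESeq2 1.42.0 as the alternative. Blastocysts were fitted with limma 3.58.1 on log2(FPKM + 1). Groups came from sample titles. Each p was adjusted over all tested genes, with a threshold of 0.05. A floor is 3 counts. Scripts were tested on simulated data. Positions and transcripts are GENCODE M21 (GRCm38) and 98.4% of symbols matched. The members and the gene lists were chosen with earlier results of these data known. The rule for named genes was the members, their annotated neighbours and relatives, list genes past the threshold, and the 10 genes most alike in pattern. The values of 1 gene of the 2-cell list are not reported here.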

Additional observations from a re-analysis of the deposited data

Results flagged for a closer look

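Single embryos far from the others of their group were looked for among 30 sets of values, each member and the family's sum in each group with a spread, and 12 sets held one. Chance alone gives about 1 in 20 where values spread evenly, a rate that does not hold for values near 0, and in 3 of the 12 sets every other embryo was at 0, so that the lone value had to stand out. R442Q zygote replicate 2 stood out for Tdpoz1 (2.27 CPM, others up to 0.807), Tdpoz3 (0.449 CPM, others up to 0.157), Tdpoz5 (4.65 CPM, others up to 0.549) and the family's sum (7.37 CPM, others up to 1.67). Among WT zygotes, replicate 2 held the only count of Tdpoz3 (0.112 CPM).

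R442Q late 2-cell replicate 4 had 658 CPM of Tdpoz1, where the other 4 had 392 to 461. WT blastocyst replicate 2 stood out for Tdpoz1 (3.22 FPKM, others up to 0.82), Tdpoz3 (1.17 FPKM, others at 0) and Tdpoz5 (0.06 FPKM, others at 0). Among R442Q blastocysts, replicate 3 had 0.75 FPKM of Tdpoz1 (others up to 0.23), and replicate 2 had 8.52 FPKM of Tdpoz2 (others up to 3.29) and so the highest family sum, 8.52 FPKM (others up to 3.39).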

How the results depend on the processing

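No member was called in zygotes, late 2-cell embryos, blastocysts or the interaction under any setting run, nor without any 1 embryo. With the length and GC trend removed, late 2-cell log2 differences changed sign to -0.38 (Tdpoz2), -0.056 (Tdpoz3), -0.32 (Tdpoz4) and -0.21 (Tdpoz5), and the cause was not tested. The WT stage difference of Tdpoz4 ranged from 8.60 to 10.2 with 1 embryo left out. Leaving out WT zygote replicate 2 left Tdpoz3 no WT zygote count and so no value, and Tdpoz2 had no FPKM ratio. In zygotes the joint fit called 9 of the 2-cell list and 0 of the CUL3 list, whose calls ranged from 1 to 4 with 1 embryo left out. In late 2-cell embryos calls among the 2-cell list were 7 (no filter), 9 (DESeq2), 4 (joint fit) and 0 (trend removed), and 1 to 5 with 1 embryo left out. Those of the CUL3 list were 9 (DESeq2), 15 (joint fit), 2 (limma on FPKM) and 2 (trend removed), and 1 to 4 with 1 left out. The lists' settings, the pooling of sharing genes, the sum of Tdpoz5 with Gm10697 and the left-out embryo for other cluster genes were chosen after seeing the data.

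Of all genes, edgeR called 580 in late 2-cell embryos, against 889 (no filter), 1683 (DESeq2), 2507 (joint fit), 124 (trend removed), and 142 (without WT replicate 2) to 891 (without R442Q replicate 3). In zygotes it called 1643, and 270 in the joint fit. In blastocysts limma called 1, and 0 to 30 with 1 embryo left out.

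Replicate numbers are shared between groups, but nothing in the labels says that they pair embryos. In zygotes and late 2-cell embryos the descriptions number some embryos otherwise than the titles do. Deviations of embryos with the same replicate number correlated from -0.057 to 0.062 in zygotes, -0.143 to 0.205 in late 2-cell embryos and -0.168 to 0.204 in blastocysts. These values cannot show whether embryos shared a batch. With the replicate number as a block, edgeR called 49 genes in late 2-cell embryos and 1205 in zygotes, 0 members in either, and 0 of the 2-cell list in late 2-cell embryos. The blocked log2 difference of Tdpoz1 was 0.78 (edgeR adjusted p 0.233), and limma called 0 genes in blastocysts. In zygotes the members' low counts limit their values, and a count of 0 allows up to 3.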
